A study of Mus musculus with 60 samples.

Results

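The genes described are 8 that encode neurotrophins, their receptors and proteins that active neurons secrete or display: Bdnf, Ntf3, Ntrk2, Ntrk3, Vgf, Scg2, Nrn1 and Inhba. They were chosen by name, are 8 of the 47643 gene symbols in the table, and all 8 were among the 15608 genes tested. The study measured RNA in 60 libraries of mouse hippocampus. CAC mice had been injected with melanoma cells labelled as cachectic, the wasting syndrome of cancer, NCAC mice with melanoma cells labelled as non-cachectic, and Con mice with a mock injection that held no tumour cells. Hippocampi were sampled 2, 4, 6 and 8 wk after injection, with 4, 5, 5 and 7 libraries for CAC, 5, 5, 4 and 5 for NCAC, and 5 at every time for Con.

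All mice were female and are labelled as 2 months old, and the labels name no genetic change in any group. The strain is given as C57BL6/J for each sample, whereas the series' design names NCI Ath/nude mice. The extract protocol also mentions the LLC tumour line and a time of 3 wk, neither of which belongs to any group here. The melanoma lines are not named, and body weight, muscle mass and food intake were not used here, so CAC and NCAC stand for the cells injected. The labels call the samples biological replicates but do not say that each is another mouse; the p-values therefore rest on the spread between libraries, which may be technical in part. In bulk tissue, fewer cells of a type and less RNA per cell cannot be told apart.

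Neurotrophins are secreted growth factors that keep neurons alive and adjust their synapses. BDNF, the product of Bdnf, acts through TrkB (Ntrk2), and neurotrophin-3 (Ntf3) acts mainly through TrkC (Ntrk3); both receptors are tyrosine kinases that signal through adaptor proteins to the MAP kinase, PI3 kinase and phospholipase pathways. In the hippocampus, granule cells of the dentate gyrus and pyramidal cells make BDNF, and electrical activity raises Bdnf transcription through several alternative promoters. Vgf and Scg2 encode granin-family precursors that are packed into dense-core vesicles and cut into neuropeptides. Nrn1 encodes neuritin, a lipid-anchored protein that promotes growth of neurites and synapses, and Inhba encodes the subunit of activin A, a TGF-beta family ligand that activity induces in neurons.

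Calcium and cAMP signals reach several of these genes through CREB, which binds the cAMP response element (CRE). Promoter windows are therefore shown for the 3 members whose levels were lowest in CAC mice at 8 wk in the results that follow: Bdnf at its start site 3 of the 7 listed, Scg2 and Inhba. They come from RefSeq on GRCm38.p6, run 5′ to 3′ on the gene's strand over 250 bases before to 50 bases after the start site, and carry any CRE match in capitals. The table held windows for 5 of the 8 genes (Bdnf, Ntf3, Ntrk2, Scg2 and Inhba), 12 start sites in all.
Bdnf start site 3, chr2:109692186-109692485, plus strand: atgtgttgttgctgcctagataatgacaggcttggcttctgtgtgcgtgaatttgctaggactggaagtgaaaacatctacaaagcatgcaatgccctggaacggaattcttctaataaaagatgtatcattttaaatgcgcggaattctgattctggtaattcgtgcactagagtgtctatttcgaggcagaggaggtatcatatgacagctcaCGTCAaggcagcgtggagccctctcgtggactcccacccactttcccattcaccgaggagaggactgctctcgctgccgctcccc
Scg2, chr1:79439977-79440276, minus strand: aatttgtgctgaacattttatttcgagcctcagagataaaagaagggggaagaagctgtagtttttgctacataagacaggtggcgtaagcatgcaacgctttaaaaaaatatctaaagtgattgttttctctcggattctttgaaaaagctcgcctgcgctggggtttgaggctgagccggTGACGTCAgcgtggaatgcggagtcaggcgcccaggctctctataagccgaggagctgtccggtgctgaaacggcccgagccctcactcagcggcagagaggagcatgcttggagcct
Inhba, chr13:16011601-16011900, plus strand: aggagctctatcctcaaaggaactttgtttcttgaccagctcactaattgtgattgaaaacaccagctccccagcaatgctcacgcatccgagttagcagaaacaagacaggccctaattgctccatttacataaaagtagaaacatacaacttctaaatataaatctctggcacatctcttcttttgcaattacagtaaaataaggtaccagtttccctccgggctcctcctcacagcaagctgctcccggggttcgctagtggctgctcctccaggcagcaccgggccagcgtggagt

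The Scg2 window holds a full CRE, TGACGTCA, whose first base lies 68 bases before the start site. Of 32851 promoter windows of the same length, 1.79% hold these letters on either strand. The Bdnf window holds only the short CRE core TGACG, read on the other strand as CGTCA, 35 bases before the start site; 20.8% of all windows hold the core, and a full CRE always holds it. It was chosen because it is the only window of the 7 at Bdnf start sites with the core, and the other 6 hold neither form. The Inhba window holds neither. The AP-1 letters TGANTCA were found, on either strand, at start site 2 of Bdnf and in no other of the 12 windows, against 7.81% of all windows. A match of letters is a description of the sequence, and nothing here measured binding.

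Levels differed widely between the members. TPM expresses transcript abundance per gene length and library total, so the order of levels between genes depends on the length used for each. Ntrk3, divided by 30170 bases, had 9214 to 15086 reads per library. Scg2, divided by 2515 bases, had 6327 to 11519 reads. Over the 60 libraries Scg2 ran between 234 and 468 TPM, Nrn1 between 226 and 411 TPM and Ntrk2 between 153 and 241 TPM. Vgf lay between 7.81 and 70.5 TPM, Ntrk3 between 28.7 and 53.7 TPM, Bdnf between 11.8 and 27.9 TPM and Ntf3 between 7.48 and 20.3 TPM. Inhba was the lowest, at 0.796 to 5.23 TPM, which rested on 17 to 107 reads per library, so counting error weighs more on it than on any other member. Bdnf had 794 to 1759 reads, Vgf 216 to 2429, Ntf3 123 to 346 and Ntrk2 23006 to 32599. The coefficient of variation over all libraries was largest for Vgf (36.2%) and Inhba (32.2%) and smallest for Ntrk2 (9.58%) and Nrn1 (10.5%).

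Ordered by group mean, 3 members had their lowest level in CAC at 8 wk and 3 in Con at 8 wk. CAC mice at 8 wk had the lowest mean of Bdnf (16.3 TPM), Scg2 (282 TPM) and Inhba (1.79 TPM), whereas Con mice at 8 wk had the lowest of Ntrk2 (162 TPM), Ntrk3 (31.3 TPM) and Ntf3 (10.5 TPM) and the highest of Vgf (67.4 TPM). The highest mean was 1.44 times the lowest for Bdnf and 3.19 times for Vgf. Most neighbours in these orders could not be separated: of the 11 gaps between neighbouring groups, 1 exceeded the larger SD of the pair for Ntrk3 (CAC over Con, both at 8 wk), Vgf (NCAC below Con, both at 8 wk) and Scg2 (NCAC at 6 wk over Con at 8 wk), and none did for the other 5 members.

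**Figure D1:**
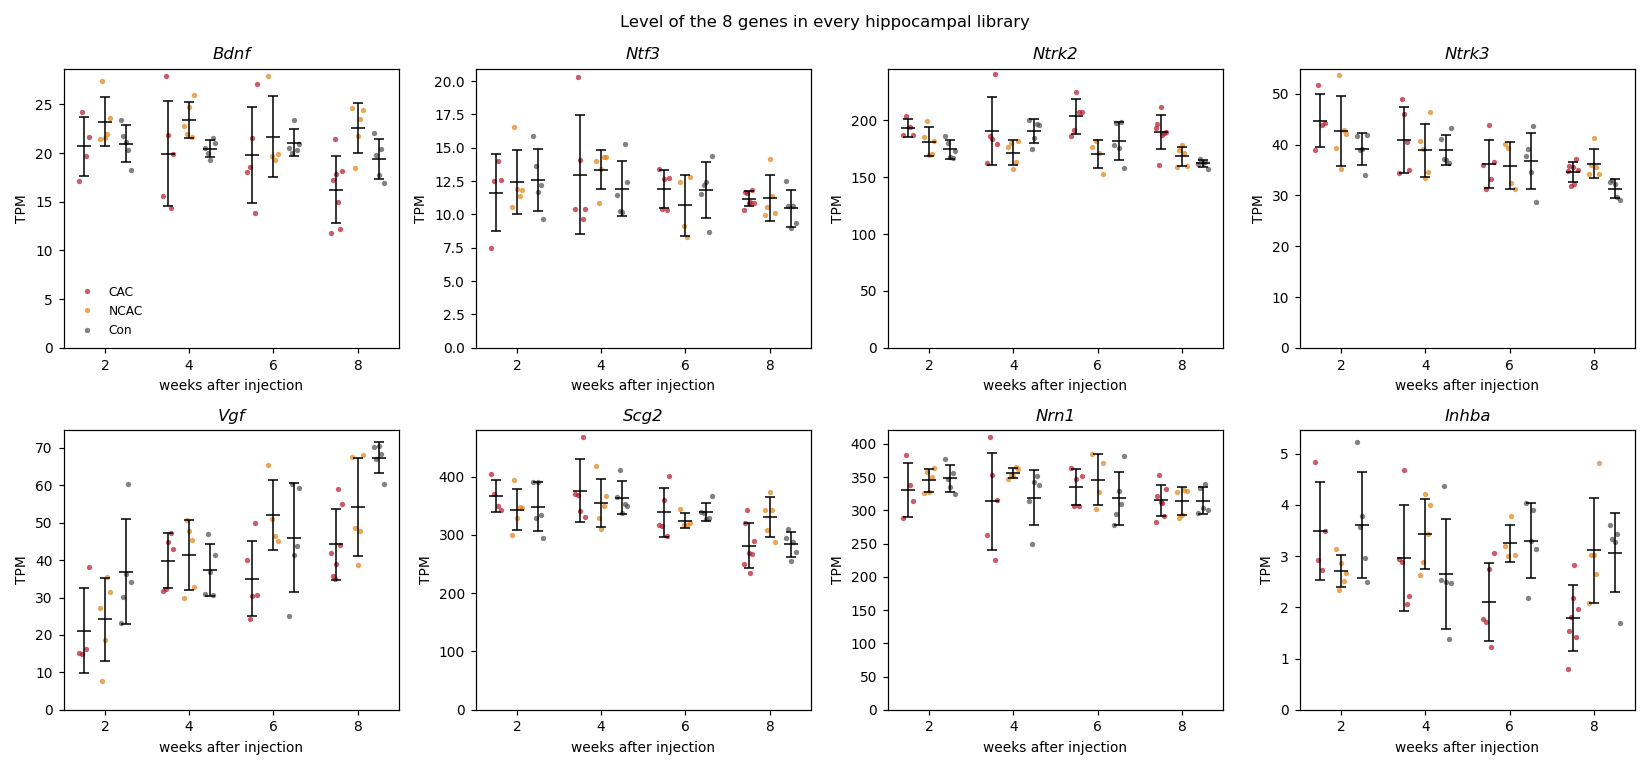
TPM of each of the 8 genes (one panel each, linear axis from 0) in every library, by weeks after injection and by injection (CAC, NCAC, Con from left to right within a week); points are libraries, and bars are group means with their SD. Vgf spans the widest range, 7.81 to 70.5 TPM, and the 7 CAC libraries at 8 wk lie below the 5 Con libraries; Inhba in CAC is lowest at 8 wk, with a mean of 1.79 TPM.

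Recovered sequencing depth was 32388197 to 42047145 reads per library. The tissue label was checked against marker genes: the 5 neuronal markers summed to between 2318 and 2720 TPM per library, and the dentate granule cell markers to between 81.9 and 218 TPM, with no marker at 0 throughout. Striatal markers reached 1086 TPM in 1 CAC library at 2 wk, 1350 TPM at 4 wk in CAC and 1349 TPM at 4 wk in Con, while no library at 6 or 8 wk exceeded 124.5 TPM. In all, 10 libraries stood more than 1 log2 unit above the median of the 60 in striatal or erythrocyte markers, among them CAC replicate 3 and Con replicates 1 and 2 at 8 wk; results that change without these 10 are given both ways. Libraries also differed in how TPM leaned on GC content. The slope, in log2 units per 10% of GC, ran between -0.0478 and 0.168 in CAC and between 0.121 and 0.155 in Con at 8 wk, against -0.205 to 0.0107 in CAC and -0.146 to 0.0665 in Con at 2 wk.

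Whether the tumours changed these genes relative to mock injection was tested with limma on log2(TPM + 0.5), with Benjamini-Hochberg adjustment over all 15608 genes and a threshold of 0.05. At 8 wk, CAC and Con differed in 2 of the 8 members, Inhba lower and Ntrk2 higher in CAC; 14.5% of all tested genes passed in that comparison, 1757 of them higher and 499 lower. The split of all genes rests on scaling: with each library divided by its median ratio to the other libraries (median-of-ratios scaling) it was 679 higher and 730 lower, while the members kept 1 call in each direction. At 2, 4 and 6 wk limma called 0 members, with 1, 0 and 2 at an unadjusted p under 0.05 and 0 by voom each time, where 3.7%, 0.801% and 0.25% of all genes passed. Over the mean of the 4 weeks 2 members passed, Ntrk2 higher and Vgf lower in CAC, against 19.8% of all genes (2323 higher and 772 lower, or 1328 and 1252 with median-of-ratios scaling). The median difference of the 8 at 8 wk was -0.01 on the log2 scale, against 0.05 for all genes, with 4 of the 8 below 0.

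Against the NCAC tumours, CAC mice differed in 1 member at 8 wk, Bdnf, where 1.83% of all genes passed. Over the mean of the weeks 2 members passed, Bdnf lower and Ntrk2 higher in CAC, where 15.7% of genes passed (1804 higher and 642 lower, or 1195 and 1055 with median-of-ratios scaling). At 2, 4 and 6 wk limma called 0 members, with 0, 2 and 3 at an unadjusted p under 0.05 and 0, 0 and 1 by voom, where 0%, 0.0128% and 1.77% of genes passed. The median of the 8 at 8 wk was -0.15, against 0.02 for all genes. A share of members near that of all genes says nothing particular about the members.

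Between NCAC and Con limma called 0 members at every week and over their mean, and likewise 0% of all genes at 2, 4, 6 and 8 wk and 0% over the mean. At an unadjusted p under 0.05 there were 1, 1, 0, 2 and 1 members in these 5 comparisons, and voom called 0 in each.

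Members also differed between weeks. Between 8 and 2 wk, 5 of 8 members passed in CAC (Vgf higher; Bdnf, Ntrk3, Scg2 and Inhba lower), against 31% of all genes, 1692 higher and 3139 lower. In NCAC 1 passed (Vgf higher) against 14% of genes, and in Con 3 passed (Vgf higher; Ntrk3 and Scg2 lower) against 9.67%. With median-of-ratios scaling the split of all genes in CAC was 2383 higher and 2076 lower, and the members called were 1 higher and 3 lower in CAC, 1 higher in NCAC and 1 higher in Con. The weeks differ in time since injection and may differ in handling and in the mice's age at sampling, which cannot be told apart. The labels give 2 months at every week and do not say when that age was taken. The interaction terms, which test whether the difference between CAC and another group changed between 2 and 8 wk, gave 0 member calls by limma: against Con 0 members had an unadjusted p under 0.05 (0.00641% of all genes called), against NCAC 2 did (0.237% called), and voom called 0 in both.

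**Figure D2:**
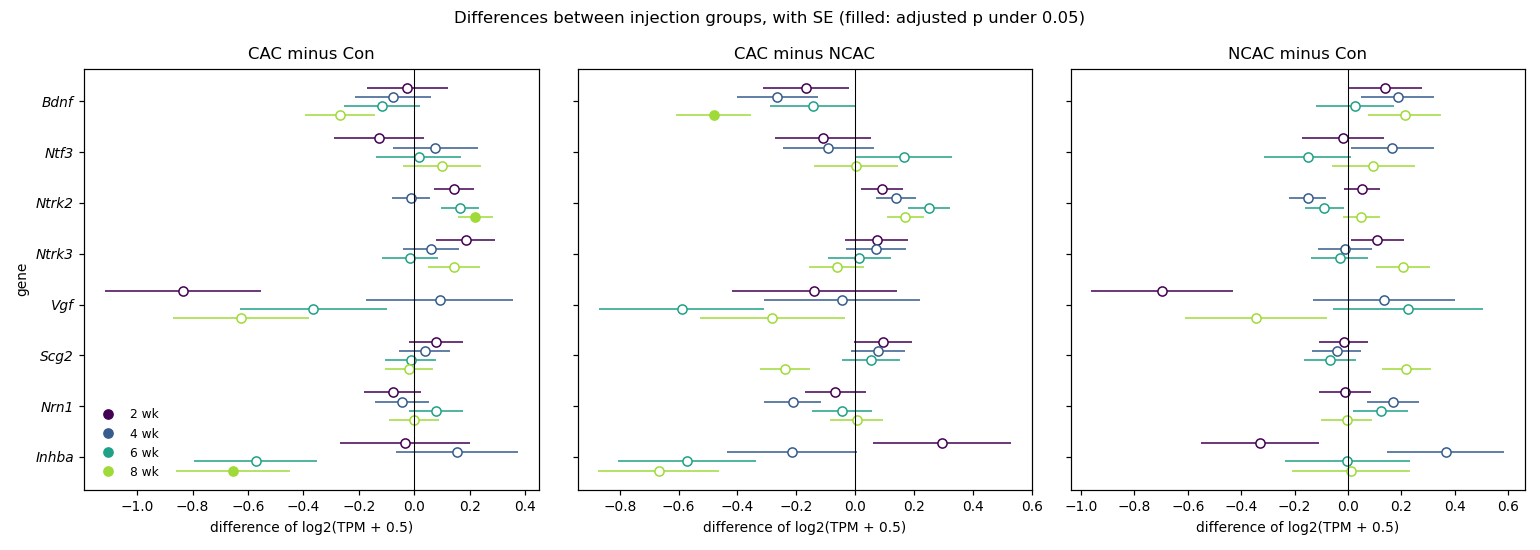
Differences of log2(TPM + 0.5) of the 8 genes (rows) for CAC minus Con, CAC minus NCAC and NCAC minus Con (panels), each at 2, 4, 6 and 8 wk (colours); bars are SE from limma, and filled points passed the adjusted threshold of 0.05. The 3 filled points, all at 8 wk, are Inhba (-0.66) and Ntrk2 (0.22) for CAC minus Con and Bdnf (-0.48) for CAC minus NCAC, and the SE is widest for Vgf and Inhba.

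Bdnf was lower in cachectic than in non-cachectic tumour mice at 8 wk. It lies at chr2:109674700-109727007 on the plus strand (GRCm38), and its TPM sums the transcripts of all its start sites. At 8 wk it ran between 11.8 and 21.5 TPM in the 7 CAC libraries, with a median of 17.2 TPM; it was 24.6, 18.5, 21.8, 23.5 and 24.4 TPM in NCAC and 22.0, 19.8, 17.7, 20.4 and 16.9 TPM in Con. Of the 7 CAC libraries, 6 lay below every NCAC library and 3 below every Con library. The means were 16.3 ± 3.47 TPM in CAC (SD, n = 7) and 22.6 ± 2.55 TPM in NCAC (n = 5), a log2 difference of -0.48 ± 0.13 (SE) or 0.716-fold, with an adjusted p of 0.0321 by limma.

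Relative to mock injection the Bdnf difference at 8 wk was -0.27 ± 0.13 and did not pass (adjusted p = 0.139 by limma); once each library's trend on GC content and gene length was removed it was -0.37 and passed (0.0407). NCAC libraries in turn averaged above Con at every week, by 0.21 ± 0.14 at 8 wk, without passing (adjusted p = 0.713). At 6 wk, however, 3 of 4 NCAC libraries lay below every Con library, and the NCAC median was 19.8 TPM against 20.5 TPM in Con. The higher NCAC mean at 6 wk went with replicate 1, at 27.9 TPM. Con means of 20.98, 20.47, 21.06 and 19.38 TPM at 2, 4, 6 and 8 wk lay between those of CAC and NCAC at every week. At 4 wk all 5 NCAC libraries lay above every Con library. Over the mean of the weeks Bdnf passed against Con in neither CAC nor NCAC. It was 19.2 TPM in CAC and 22.7 TPM in NCAC, a difference of -0.26 ± 0.07 (adjusted p = 0.00778 by limma). That difference kept its call in each of the 9 alternative settings and without any single library, between -0.30 and -0.23. The call at 8 wk alone was less stable: it was lost when only the 2 groups were fitted (adjusted p = 0.117), with the replicate number as a block (0.158) and without CAC replicate 1 or 6 or NCAC replicate 1, 4 or 5 (up to 0.127), and without the 10 marker-rich libraries it was -0.55 (0.00154).

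At the earlier weeks the spread of Bdnf in CAC mice was wide. At 4 wk it was 15.6, 27.9, 21.8, 14.4 and 19.9 TPM in CAC, against 22.8, 21.9, 24.7, 21.7 and 25.9 TPM in NCAC and 20.5, 19.99, 19.3, 21.5 and 21.04 TPM in Con. At 6 wk it was 18.04, 18.6, 21.6, 13.8 and 27.1 TPM in CAC, against 27.9, 19.7, 19.3 and 19.9 TPM in NCAC and 20.5, 20.1, 23.4, 20.3 and 20.98 TPM in Con. CAC libraries lay on both sides of all others at 4 wk, where replicates 1, 2 and 4 are among the 10 marker-rich ones, and at 6 wk the CAC library at 13.8 TPM was below all others while 1 NCAC library exceeded the CAC library at 27.1 TPM. Their SDs of 5.39 TPM at 4 wk and 4.92 TPM at 6 wk stand against 0.878 and 1.37 TPM in Con. At 8 wk CAC averaged 16.3 TPM, against 20.7 TPM in CAC at 2 wk (log2 difference -0.36 ± 0.14, adjusted p = 0.0407 by limma), but this was -0.18 with the GC and length trend removed (0.349), and the call was lost in 6 of 9 alternatives and without any of 6 of the 11 libraries.

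Ntf3, whose product neurotrophin-3 is the main ligand of TrkC and is made in the dentate gyrus, passed in no comparison. It lies at chr6:126101412-126166910 on the minus strand. At 8 wk it ran between 10.3 and 11.8 TPM in CAC with a median of 10.9 TPM, and it was 9.95, 10.5, 14.1, 11.4 and 10.1 TPM in NCAC and 12.5, 10.7, 9.02, 10.6 and 9.38 TPM in Con. The 3 groups overlapped throughout, and the group means of all weeks stayed between 10.5 and 13.4 TPM.

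Ntrk2, which encodes the BDNF receptor TrkB, was higher in CAC than in Con mice at 8 wk and over the mean of the weeks, by a small amount. The gene lies at chr13:58806569-59133970 on the plus strand, and a value per gene cannot separate the full-length kinase form, made by neurons, from the truncated form that astrocytes also make. At 8 wk it ran between 161 and 212 TPM in CAC with a median of 190 TPM; it was 159, 174, 178, 171 and 160 TPM in NCAC and 162, 166, 163, 164 and 157 TPM in Con. All CAC libraries but replicate 3, which is among the blood-rich ones, lay above every NCAC and every Con library. CAC averaged 190 ± 15.2 TPM (SD, n = 7) and Con 162 ± 3.24 TPM (n = 5), a log2 difference of 0.22 ± 0.06 (SE) or 1.17-fold (adjusted p = 0.0169 by limma). With the GC and length trend removed it was 0.14 (0.061).

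Against NCAC the Ntrk2 difference at 8 wk was 0.17 ± 0.06 and did not pass (adjusted p = 0.15 by limma), while without the 10 marker-rich libraries it was 0.21 and passed (0.0096). At 6 wk the groups did not overlap: Ntrk2 was 186, 191, 225, 207 and 207 TPM in CAC against 176, 182, 171 and 153 TPM in NCAC. That difference, 0.25 ± 0.07, had an adjusted p of 0.0529 and passed in 5 of 9 alternatives, among them the fit without the 10 marker-rich libraries (0.28, 0.00913). Over the mean of the weeks Ntrk2 was 194 TPM in CAC, 173 TPM in NCAC and 177 TPM in Con, with differences of 0.16 ± 0.03 from NCAC (adjusted p = 0.00121) and 0.13 ± 0.03 from Con (0.00588). Both kept their call in all 9 alternatives and without any single library. At 4 wk CAC and Con did not separate, at 190.5 and 190.6 TPM (log2 difference -0.01 ± 0.07, adjusted p = 0.947 by limma). The CAC mean was 193 TPM at 2 wk and 190 TPM at 8 wk, and the Con mean 175 and 162 TPM. In Con all 5 libraries at 8 wk lay below all those at 2 wk, though that difference did not pass. The astrocyte markers, 6 genes with none at 0, summed at 8 wk to 1810 to 2322 TPM in CAC, 1759 to 2149 TPM in NCAC and 1870 to 1933 TPM in Con; their part in the Ntrk2 difference was not tested.

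Ntrk3, the gene of the neurotrophin-3 receptor TrkC, passed between weeks in CAC and Con and in no comparison between injections. It lies at chr7:78175959-78738012 on the minus strand. In CAC it ran between 31.8 and 37.2 TPM at 8 wk with a median of 35.1 TPM, against 39.0, 51.8, 43.8 and 44.2 TPM at 2 wk. In Con it was 32.6, 33.1, 32.2, 29.8 and 29.0 TPM at 8 wk, against 41.7, 39.0, 39.2, 34.0 and 41.9 TPM at 2 wk. In both, every library at 8 wk lay below every library at 2 wk. Between injections at 8 wk, all 5 NCAC libraries and 5 of 7 CAC libraries lay above every Con library, without a call. Means at 8 wk were 34.7 TPM in CAC, 36.3 TPM in NCAC and 31.3 TPM in Con. The log2 differences between 8 and 2 wk were -0.36 ± 0.10 in CAC (adjusted p = 0.00605 by limma), -0.22 ± 0.10 in NCAC (0.128) and -0.32 ± 0.10 in Con (0.0388). With the GC and length trend removed they were -0.09 in CAC, 0.01 in NCAC and -0.08 in Con, with adjusted p of 0.321, 0.969 and 0.645. Without CAC replicate 2 at 2 wk, which had 51.8 TPM, the CAC difference was -0.29 (0.0544), and the Con call was lost without any of 8 of its 10 libraries.

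Vgf was higher at 8 wk than at 2 wk in all 3 injection groups. It encodes a granin-family precursor whose peptides are known to alter synaptic activity and energy balance, lies at chr5:137026392-137033351 on the plus strand, and with 64.1% GC stands at the 99.4th percentile of the tested genes. At 8 wk it ran between 34.8 and 59.1 TPM in CAC with a median of 41.9 TPM, against 15.1, 14.98, 16.3 and 38.1 TPM in CAC at 2 wk. In NCAC it was 67.5, 48.7, 38.6, 47.7 and 68.2 TPM at 8 wk, against 27.2, 7.81, 18.6, 35.6 and 31.5 TPM at 2 wk. In Con it was 70.4, 67.1, 70.5, 68.3 and 60.5 TPM at 8 wk, against 23.3, 30.1, 36.3, 60.4 and 34.1 TPM at 2 wk. The weeks did not overlap in NCAC and Con, and in CAC 5 of 7 libraries at 8 wk lay above all those at 2 wk.

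The log2 difference of Vgf between the weeks was 1.14 ± 0.26 in CAC (2.21-fold, adjusted p = 0.00111 by limma), 1.28 ± 0.27 in NCAC (2.43-fold, 0.00689) and 0.93 ± 0.27 in Con (1.91-fold, 0.0219). The value of Vgf moved with the GC slope of its library. Within groups, the correlation between the 2 over the 60 libraries was r = 0.843 and rho = 0.813, each with an adjusted permutation p of 8e-05 over 8 genes, the smallest that 100000 permutations allow, and r = 0.796 without the 2 libraries farthest from the median slope. Of the other 7 members, 4 passed in the same test with the opposite sign: r was -0.525 for Ntrk3, -0.453 for Scg2, -0.408 for Ntrk2 and -0.335 for Bdnf (adjusted permutation p of 0.00152, 0.004, 0.00724 and 0.0303). The slope was itself fitted to the tested genes, members included, so genes of high or low GC content follow it or oppose it partly by construction. The test was not run on all genes, so this count says nothing particular about the members. With the GC and length trend removed the Vgf differences between the weeks were 0.65 in CAC (0.00764), 0.86 in NCAC (0.00922) and 0.50 in Con (0.185, no longer past the threshold). The NCAC call was also lost without replicate 2 at 2 wk, at 7.81 TPM (0.93, adjusted p = 0.0929), and the Con call without replicate 1 or 2 at 2 wk (up to 0.105) and without the 10 marker-rich libraries (0.91, 0.0681).

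CAC mice had less Vgf than Con mice over the mean of the weeks, at 35.1 TPM against 46.9 TPM (log2 difference -0.43 ± 0.13, adjusted p = 0.0169 by limma). It was -0.32 with the GC and length trend removed (0.0102) and -0.33 without the 10 marker-rich libraries, where it no longer passed (0.202). At 8 wk all 7 CAC libraries lay below all 5 Con libraries, with means of 44.2 ± 9.44 TPM (SD, n = 7) and 67.4 ± 4.12 TPM (n = 5), yet the difference of -0.63 ± 0.25 did not pass in the fit over all groups (adjusted p = 0.0725). It passed by voom (0.0317), when only the 2 groups were fitted (0.00958) and without CAC replicate 5 at 8 wk (0.0496), and was -0.41 with the GC and length trend removed (0.103). At 2 wk the difference was -0.84 ± 0.28 (0.0716). Against NCAC, Vgf passed at no week, with -0.28 ± 0.25 at 8 wk (0.634).

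**Figure D3:**
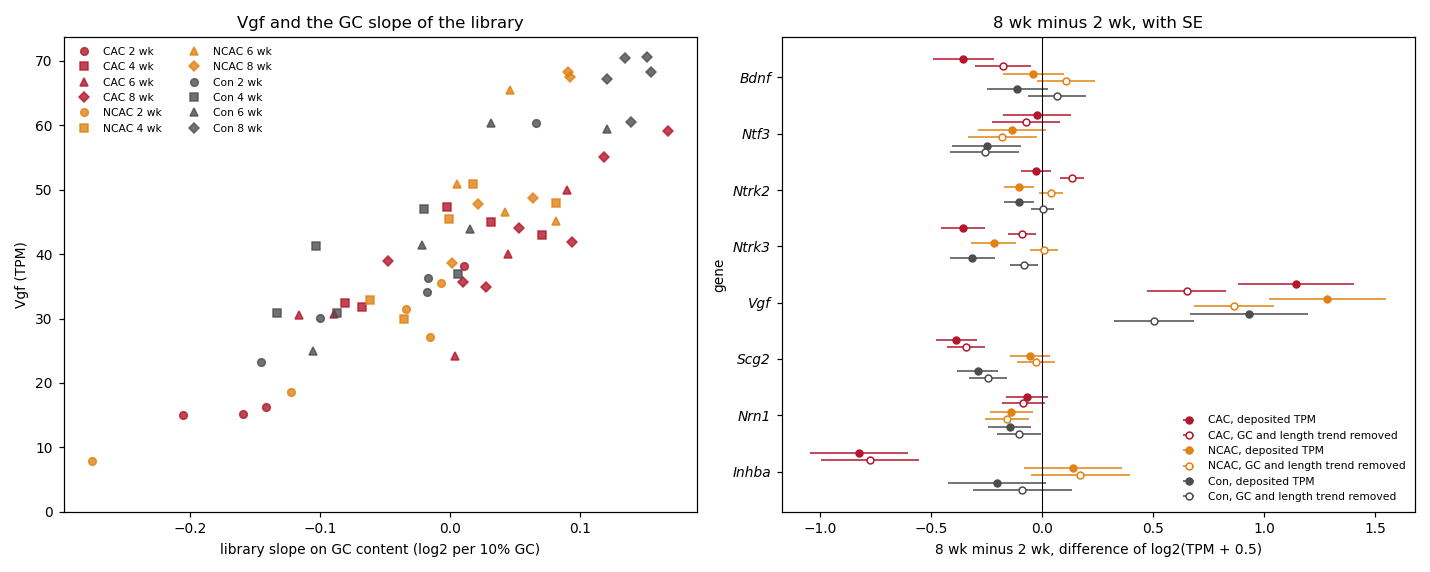
Left, TPM of Vgf against the slope of its library on GC content (log2 units per 10% GC), 1 point per library, with colour for the injection and shape for the week; high slopes go with high Vgf, and within groups r was 0.843 on the log2 scale. Right, the log2 difference between 8 and 2 wk of each gene in CAC, NCAC and Con with its SE, from the deposited TPM (filled) and with the GC and length trend removed (open); the values of Ntrk3 come close to 0 after removal (-0.09 in CAC), those of Vgf shrink but stay above 0 (0.65 in CAC), and that of Inhba in CAC is -0.78.

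Scg2, which encodes secretogranin II, the precursor of secretoneurin, was lower at 8 wk in CAC and Con mice. It lies at chr1:79434669-79440120 on the minus strand. In CAC it ran between 234 and 343 TPM at 8 wk with a median of 268 TPM, against 404, 370, 349 and 342 TPM at 2 wk, so that 6 of 7 libraries lay below all those at 2 wk. In NCAC it was 342, 309, 374, 342 and 287 TPM at 8 wk, against 299, 394, 330, 348 and 346 TPM at 2 wk, and the weeks overlapped. In Con it was 295, 310, 255, 288 and 271 TPM at 8 wk, against 391, 330, 391, 335 and 295 TPM at 2 wk.

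The log2 difference of Scg2 was -0.39 ± 0.09 in CAC (adjusted p = 0.0014 by limma), -0.06 ± 0.09 in NCAC (0.726) and -0.29 ± 0.09 in Con (0.0373). The CAC call held in all 9 alternatives and without any single library, and was -0.35 with the GC and length trend removed (0.00315). The Con difference was then -0.24 and did not pass (0.175), and its call was lost without any of 7 of its 10 libraries. The term for a difference between CAC and NCAC in this change was -0.33 ± 0.13 (adjusted p = 0.272). Between injections at 8 wk, Scg2 differed by -0.24 ± 0.09 between CAC and NCAC (0.134; -0.29 and 0.0216 without the 10 marker-rich libraries) and by -0.02 ± 0.09 between CAC and Con (0.906).

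Nrn1, the gene of neuritin, passed in no comparison. It lies at chr13:36725361-36735131 on the minus strand and overlaps Fars2 on the opposite strand, which averaged 20.997 TPM; the sources used here do not say whether reads were counted by strand. At 8 wk it ran between 283 and 354 TPM in CAC with a median of 312 TPM, and it was 327, 288, 293, 331 and 330 TPM in NCAC and 296, 334, 303, 340 and 301 TPM in Con. The groups overlapped, and group means of all weeks lay between 314 and 356 TPM. The widest spread was in CAC at 4 wk, where replicates 1, 2 and 4 are among the marker-rich libraries and Nrn1 was 263, 411, 353, 226 and 316 TPM, against 347, 353, 351, 365 and 362 TPM in NCAC.

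Inhba was lower in CAC mice at 8 wk than in Con mice. It lies at chr13:16011851-16031621 on the plus strand, and its product, as a dimer, is activin A, which acts on activin receptors to phosphorylate Smad2 and Smad3. At 8 wk it ran between 0.796 and 2.82 TPM in CAC with a median of 1.81 TPM; it was 2.08, 3.01, 3.02, 2.65 and 4.82 TPM in NCAC and 3.60, 3.32, 3.27, 3.42 and 1.70 TPM in Con. Of the 7 CAC libraries, 5 lay below every NCAC library and 3 below every Con library, whose replicate 5 was itself low. The means were 1.79 ± 0.636 TPM in CAC (SD, n = 7) and 3.06 ± 0.772 TPM in Con (n = 5), a log2 difference of -0.66 ± 0.21 or 0.635-fold (adjusted p = 0.0266 by limma). The log2(TPM + 0.5) scale understates the change of a gene this low.

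The Inhba call at 8 wk was lost without the 10 marker-rich libraries (-0.54, adjusted p = 0.125), with the replicate number as a block (0.0651) and without CAC replicate 1, 2 or 6 or Con replicate 1, 2, 3 or 4, up to an adjusted p of 0.0742 by limma. Against NCAC the difference was of like size, -0.67 ± 0.21, and did not pass (0.0707; 0.0397 without the 10 libraries). At 6 wk Inhba was 1.78, 1.71, 2.75, 1.23 and 3.05 TPM in CAC, against 3.20, 3.00, 3.78 and 3.01 TPM in NCAC and 4.03, 2.17, 3.29, 3.90 and 3.13 TPM in Con, with differences of -0.57 ± 0.24 from NCAC (0.175) and -0.57 ± 0.22 from Con (0.265). CAC means were 3.49, 2.96, 2.10 and 1.79 TPM at 2, 4, 6 and 8 wk, NCAC means 2.70, 3.43, 3.25 and 3.12 TPM, and Con means 3.61, 2.65, 3.30 and 3.06 TPM.

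Within CAC, Inhba at 8 wk was lower than at 2 wk, where it was 4.84, 2.92, 2.72 and 3.49 TPM, and 6 of 7 libraries at 8 wk lay below all of these. The log2 difference was -0.83 ± 0.22 (adjusted p = 0.00387 by limma), held in all 9 alternatives and without any single library, and was -0.78 with the GC and length trend removed. It was 0.14 ± 0.22 in NCAC (0.708) and -0.20 ± 0.22 in Con (0.59). The interaction terms were -0.96 ± 0.31 against NCAC (unadjusted p = 0.00315, adjusted 0.159) and -0.62 ± 0.31 against Con (adjusted 0.523), so a difference in the time course between injections did not pass.

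Oligodendrocyte markers moved in the same direction as Inhba between 2 and 8 wk in CAC, but not in every comparison. Their 6 genes, none at 0, summed at 8 wk to 1171 to 2180 TPM in CAC, 1475 to 2803 TPM in NCAC and 1301 to 2116 TPM in Con, against 2412 to 3313 TPM in CAC at 2 wk. All 6 were lower at 8 than at 2 wk in CAC (median log2 difference -0.90), 0 of 6 passed in NCAC by limma (0 at an unadjusted p under 0.05 and 0 by voom) and 1 passed in Con. At 8 wk 0 of 6 passed between CAC and Con (median -0.32, with 2 at an unadjusted p under 0.05 and 0 by voom) and between CAC and NCAC (median -0.45, with 5 and 0). At 6 wk, where Inhba averaged lower in CAC, the mean log2 of the markers was 7.98 in CAC, 7.97 in NCAC and 7.96 in Con. At 4 wk it was 7.82 in CAC and 8.09 in Con, while Inhba averaged 2.96 and 2.65 TPM. In NCAC it was 8.03 at 2 wk and 7.87 at 8 wk, while Inhba averaged 2.70 and 3.12 TPM. Within groups, Inhba correlated with the mean of these markers at r = 0.378 and rho = 0.380 (adjusted permutation p = 0.028 and 0.025 over 16 relations, n = 60), with r = 0.409 without the 2 farthest libraries and 0.346 without the marker-rich ones. Their part in the Inhba result was not tested.

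Between libraries of the same group, some members rose and fell together. Of the 28 pairs, 4 passed after Benjamini-Hochberg adjustment of permutation p-values over deviations from group means (n = 60 libraries, 100000 permutations each). The test was not run on pairs of other genes, so this count cannot be read as particular to the members. Bdnf and Nrn1 correlated at r = 0.686 (rho = 0.655), Ntf3 and Nrn1 at 0.628 (0.566), Bdnf and Ntf3 at 0.570 (0.568), and Ntrk2 and Ntrk3 at 0.633 (0.676). Adjusted permutation p for r was 9.33e-05 for each but Ntf3 and Nrn1, at 0.00035, and for rho between 0.00014 and 0.0007. Without the 2 libraries farthest from the median of the first gene, r was 0.652, 0.537, 0.512 and 0.728 in the same order, and without the 10 marker-rich libraries 0.612, 0.483, 0.406 and 0.742. With the GC and length trend removed, r was 0.696, 0.599 and 0.510 for the first 3 pairs and 0.363 for the receptors. Scg2 did not pass with Bdnf (r = 0.324) or Ntf3 (0.218), but without the 10 marker-rich libraries these r were 0.503 and 0.497.

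Dentate granule cell markers moved with Bdnf, Ntf3 and Nrn1 within groups. Against the mean log2 of the 5 markers, r was 0.662 for Ntf3, 0.663 for Nrn1 (adjusted permutation p = 0.00016 each over 16 relations) and 0.506 for Bdnf (0.00757), with rho of 0.591, 0.601 and 0.406, n = 60. Without the 2 farthest libraries r was 0.566, 0.558 and 0.376, and without the marker-rich libraries 0.525, 0.489 and 0.388. For Scg2 r was 0.174 over all libraries (adjusted permutation p = 0.6) but 0.490 without the marker-rich ones, a value like those of Bdnf, Ntf3 and Nrn1. The sum of these markers at 8 wk was 81.9 to 127 TPM in CAC, 86.5 to 121 TPM in NCAC and 91.2 to 118 TPM in Con, with 0 of 5 passing by limma between CAC and Con (2 at an unadjusted p under 0.05, 0 by voom) and between CAC and NCAC (0 and 0). The part of dissection in the spread of these 3 genes was not tested.

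**Figure D4:**
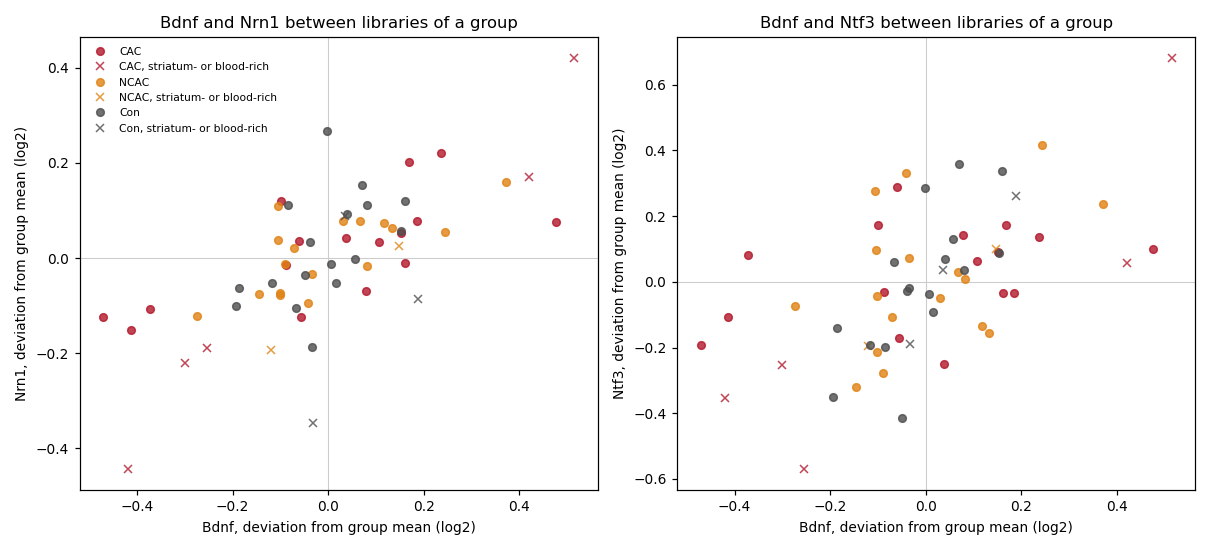
Deviation of log2(TPM + 0.5) from the group mean of Nrn1 (left) and of Ntf3 (right) against that of Bdnf, 1 point per library, coloured by injection; crosses are the 10 striatum- or blood-rich libraries. Points run upwards to the right in both panels (r = 0.686 for Nrn1 and 0.570 for Ntf3), and several of the most distant ones are crosses.

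The genes most like each member were taken by Pearson's r of log2(TPM + 0.5) over all 60 libraries, as a description that takes in group, depth and base composition. For Bdnf they were Pvrl3 (0.746), Nr4a3 (0.715), an activity-induced nuclear receptor, and Zbtb20 (0.706), a transcription factor of hippocampal neurons. For Ntf3 they were Plekha2 (0.768), Jph1 (0.754) and Epha7 (0.738). For Nrn1 they were Fam19a1 (0.762), Dpf3 (0.751) and Enc1 (0.730). For Ntrk2 they were Pik3r1 (0.892), a regulatory subunit of the PI3 kinase on which Trk receptors act, Ocrl (0.879) and Crebrf (0.866), and for Ntrk3 Pbrm1 (0.876), Ubr1 (0.873) and Dmxl2 (0.868). For Vgf they were Lrrc24 (0.962), Ccdc124 (0.948) and Igsf8 (0.942), which have between 58.4% and 61.0% GC. For Scg2 they were Eml5 (0.745), Scn3a (0.737) and Fam102b (0.735). For Inhba they were Gjb1 (0.678), the connexin of oligodendrocytes, Mpzl1 (0.661) and Aif1l (0.658).

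Trk signalling genes that passed between CAC and Con were mostly higher in CAC, as were most called genes of any kind. Of 24 adaptors and kinases downstream of Trk receptors, 5 were higher and 0 lower in CAC than in Con at 8 wk (median 0.09, all genes 0.05), where 14.5% of all genes passed and 77.9% of these were higher. Over the mean of the weeks 6 were higher and 1 lower, where 19.8% of all genes passed and 75.1% of these were higher. With median-of-ratios scaling these were 4 and 1 at 8 wk, and 5 and 1 over the weeks. Over the weeks Ptpn11, the phosphatase SHP2 of Trk and other receptor kinases, averaged 110 TPM in CAC and 96.9 TPM in Con, a log2 difference of 0.18 ± 0.04 (adjusted p = 0.000311 by limma). Pik3r1 averaged 43.3 TPM in CAC and 37.5 TPM in NCAC (0.21 ± 0.04, 0.000634). Both kept these calls in all 9 alternatives and without any single library. Gab1, a docking protein, was 14.9 TPM at 8 wk in CAC, against 26.3 TPM at 2 wk (-0.80 ± 0.15, 9.05e-05), which also held throughout. At 8 wk 0 of 24 passed between CAC and NCAC by limma, with 5 at an unadjusted p under 0.05 and 1 by voom. In time, 1 was higher and 5 lower at 8 than at 2 wk in CAC, 1 and 6 in NCAC, and 0 and 4 in Con, beside 31%, 14% and 9.67% of all genes called. With median-of-ratios scaling the counts were 2 and 4 in CAC, 1 and 2 in NCAC, and 0 and 0 in Con.

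Among 8 tested genes of the other neurotrophins and their receptors, 0 passed between CAC and Con at 8 wk (1 at an unadjusted p under 0.05, 0 by voom) or over the weeks (1 and 0), beside 14.5% and 19.8% of all genes. Between 8 and 2 wk in CAC 3 genes were lower and 0 higher (0 and 0 with median-of-ratios scaling), beside 31% of all genes called. Sorcs2, a sortilin-family receptor, was 21.9 TPM at 8 wk and 26.5 TPM at 2 wk (log2 difference -0.26 ± 0.10, adjusted p = 0.0341 by limma). Its call was lost in 6 of 9 alternatives, among them removal of the 10 marker-rich libraries (-0.11, adjusted p = 0.333). In NCAC 0 of 8 passed (2 at an unadjusted p under 0.05, 0 by voom), and in Con 0 (0 and 0).

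Of 14 other granins and prohormone-processing genes, 1 was higher and 0 lower in CAC than in Con at 8 wk, and 2 and 0 over the weeks (1 and 1 with median-of-ratios scaling). Of all genes, 14.5% and 19.8% were called in these comparisons. Pcsk2, the convertase that cuts neuropeptide precursors, averaged 138 TPM in CAC and 115 TPM in Con at 8 wk (log2 difference 0.27 ± 0.06, adjusted p = 0.00301 by limma) and 142 TPM in CAC and 128 TPM in Con over the weeks (0.17 ± 0.03, 0.000199). Cpe, the carboxypeptidase that trims the cut peptides, averaged 3944 TPM in CAC and 3669 TPM in NCAC over the weeks (0.11 ± 0.03, 0.00223). Those calls held in all 9 alternatives. Pcsk1n, which encodes the convertase inhibitor proSAAS, was higher at the later week in all 3 groups, with 49.7 TPM at 8 wk and 10.7 TPM at 2 wk in CAC (2.48 ± 0.55, 0.000813), 50.4 and 12.2 TPM in NCAC (2.33 ± 0.56, 0.00996) and 96.0 and 32.6 TPM in Con (1.96 ± 0.56, 0.0221). The NCAC value did not pass without replicate 2 at 2 wk (1.86). The Con value no longer passed with the GC and length trend removed (0.0946), without the 10 marker-rich libraries (2.00, 0.0557) or without any of 4 of its 10 libraries.

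In the activin pathway, 2 of 14 genes were higher and 1 lower in CAC than in Con at 8 wk, or 0 and 1 with median-of-ratios scaling. Of all genes, 14.5% were called in that comparison. Smad2, which carries the activin signal, was 23.9 TPM in CAC and 21.2 TPM in Con (log2 difference 0.17 ± 0.05, adjusted p = 0.0199 by limma), lost in 4 of 9 alternatives. Inha, the subunit that pairs with the Inhba product to give inhibin instead of activin, was 26.6 TPM in CAC and 35.3 TPM in Con (-0.41 ± 0.14, 0.0376), lost without the 10 marker-rich libraries (0.0952) and without any of 7 of 12 libraries. At 2 wk Inha was likewise lower in CAC, at 18.2 TPM against 26.4 TPM in Con (-0.54 ± 0.16, adjusted p = 0.0429 by limma), lost in 4 of 9 alternatives. In time, Inha was 33.2 TPM at 8 wk and 20.6 TPM at 2 wk in NCAC (log2 difference 0.71 ± 0.15, adjusted p = 0.00689 by limma). The call was lost with only the compared groups fitted and without NCAC replicate 2 at 2 wk, where the log2 difference was 0.545. With the GC and length trend removed the difference was 0.43 (adjusted p = 0.0128). In CAC Inha was also higher at 8 wk, at 26.6 TPM against 18.2 TPM at 2 wk (0.56 ± 0.15, adjusted p = 0.00353 by limma). That call was lost with the trend removed (0.113). Acvr1, a type I receptor, was 27.5 TPM at 8 wk and 33.2 TPM at 2 wk in NCAC (-0.27 ± 0.07, 0.0178, and 0.091 with the GC and length trend removed). In CAC it was likewise lower at 8 wk (-0.23 ± 0.07, adjusted p = 0.013 by limma), a call also lost with the trend removed (0.114).

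Of 15 transcription factors and cofactors that act on activity-dependent genes, 2 were higher in CAC than in Con at 8 wk and 5 over the weeks, with 0 lower in both, beside 14.5% and 19.8% of all genes called, most of them higher too. With median-of-ratios scaling 1 was higher and 0 lower at 8 wk, and 3 higher and 1 lower over the weeks. Mef2a, a factor of activity-dependent synapse genes, was 78.6 TPM in CAC and 62.5 TPM in Con at 8 wk (log2 difference 0.33 ± 0.07, adjusted p = 0.00382 by limma), which held in all 9 alternatives and was 0.22 with the GC and length trend removed. Mef2c and Creb1 were lower at 8 than at 2 wk in CAC, at 39.1 and 53.1 TPM for Mef2c (-0.44 ± 0.11, 0.00172) and 22.3 and 28.3 TPM for Creb1 (-0.34 ± 0.08, 0.00194). Neither passed with the GC and length trend removed (0.116 and 0.165). Creb1 was also lower at 8 wk in NCAC (-0.27 ± 0.08, adjusted p = 0.0305 by limma) and in Con (-0.25 ± 0.08, 0.0466). These calls too were lost with the trend removed (0.455 and 0.834).

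Immediate early genes, which report recent neuronal activity, showed no call between CAC and Con at 8 wk: 0 of 19 by limma, 0 at an unadjusted p under 0.05 and 0 by voom, with 14 below 0 and a median of -0.17. Over the weeks 0 passed by limma, 4 had an unadjusted p under 0.05, and voom called 3, as did median-of-ratios scaling, where all 3 were lower in CAC. Of all genes, limma called 14.5% at 8 wk and 19.8% over the weeks. In time, 6 were higher and 1 lower at 8 than at 2 wk in CAC, 3 and 0 in NCAC, and 2 and 0 in Con, beside 31%, 14% and 9.67% of all genes called in these comparisons. Junb, an AP-1 subunit, was 38.2 TPM at 8 wk and 10.97 TPM at 2 wk in CAC (log2 difference 2.11 ± 0.36, adjusted p = 4.69e-05 by limma), Egr4 4.75 and 1.46 TPM (1.60 ± 0.35, 0.000723) and Ier2 6.14 and 2.91 TPM (1.03 ± 0.23, 0.000869), and each call held in all 9 alternatives. With the GC and length trend removed the differences were 1.64 for Junb, 0.73 for Egr4 and 0.63 for Ier2. Junb was also higher at 8 wk in Con, at 49.1 TPM against 20.8 TPM at 2 wk (1.30 ± 0.37, 0.0209), a call lost with the GC and length trend removed (0.137) and without the 10 marker-rich libraries (1.17, 0.0572). In NCAC Junb was likewise higher at 8 wk (1.38 ± 0.37, adjusted p = 0.0145 by limma), lost with the trend removed (0.0505). Egr4 was also higher at 8 wk in NCAC (1.33 ± 0.36, 0.0153) and in Con (1.38 ± 0.36, 0.0144). Both of these Egr4 calls were lost with the trend removed (0.168 and 0.197).

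Of 13 other activity-regulated secreted and surface proteins, 0 passed between CAC and Con at 8 wk by limma (1 at an unadjusted p under 0.05, 0 by voom) or over the weeks (0 and 0), beside 14.5% and 19.8% of all genes. Nrg1, a ligand of ErbB receptors, was 2.35 TPM at 8 wk and 3.63 TPM at 2 wk in CAC (log2 difference -0.52 ± 0.13, adjusted p = 0.0018), held in all 9 alternatives and at -0.34 with the GC and length trend removed. Fgf2, basic fibroblast growth factor, was 5.45 TPM at 8 wk and 7.03 TPM at 2 wk in NCAC (-0.34 ± 0.11, 0.0366), and did not pass with the GC and length trend removed (0.32). In CAC Fgf2 was likewise lower at 8 wk (-0.32 ± 0.11, adjusted p = 0.0213 by limma), a call also lost with the trend removed (0.31).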

How the data were processed

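RNA was sequenced from 60 hippocampal samples, grouped by injection and week from the labels. The authors deposited 1 table of TPM (transcript abundance: reads divided by gene length and scaled so that each library sums to the same total) on mm10, per the submitters' processing notes. For the aligner, counter, annotation and use of strand nothing is given in the sources used here. The 15608 genes that reached a TPM of 1 in 4 libraries or more were compared as log2(TPM + 0.5) with limma 3.58.1 in R 4.3.3 (trend, 12 group means over 60 libraries, no block), with Benjamini-Hochberg adjustment over all genes, threshold 0.05. The fit was tested on simulated data. A fold change on this scale understates the change of low genes.

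Low values gave whole reads for 24227 of 24227 genes with a TPM above 0 (100% of them, within 0.02 of a whole number). Where the annotated length gave none, the shortest length that did was taken. Genes with few reads meet this easily, so the 100% is no check of the recovery. Of 15035 tested genes with a single annotated length, 64.7% were recovered at that length. Inhba was recovered at 1980 bases, against an annotated 6390. Depth recovered in this way was 32388197 to 42047145 reads per library. An alternative was voom on these reads, which called 1597 genes between CAC and Con at 8 wk against 2256 from TPM. Other alternatives were pseudocounts of 0.1 and 1, no filter, median-of-ratios scaling, only the compared groups, the replicate number as block, each library left out, removal of each library's trend on GC content and gene length (splines of 5 degrees of freedom, for the 96.5% of tested genes with both), and leaving out the 10 libraries rich in striatal or erythrocyte markers. Correlations used deviations from group means and 100000 permutations (numpy 2.4.6, scipy 1.17.1); leaving out the 10 libraries and removing the GC trend were added for them after seeing the data. Figures used matplotlib 3.10.9. The genes described and the lists were chosen with earlier results of these data known, so no p-value was adjusted over a list alone. From each pathway list, up to 3 genes with the smallest p among those past the threshold were named, and for each member the 3 named genes most correlated with it. Results for some genes of these lists are not reported here.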

Additional observations from a re-analysis of the deposited data

Results flagged for a closer look

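In 7 of 96 combinations of gene and group, 1 library stood apart from the others of its group by Dixon's criterion at the 95% level; chance alone flags about 1 in 20, or 4.8 of 96. Bdnf in NCAC at 6 wk was 27.879 TPM in replicate 1, against 19.331 to 19.88 TPM in the other libraries. The same library had 344.142 TPM of Scg2, against 316.744 to 319.728 TPM in the others. Ntf3 was high in NCAC replicate 2 at 2 wk, at 16.549 TPM against 10.52 to 11.892 TPM, and low in NCAC replicate 2 at 4 wk, at 10.886 TPM against 13.381 to 14.284 TPM. Ntrk3 in NCAC replicate 3 at 8 wk was 41.244 TPM, against 34.22 to 36.072 TPM. Vgf in CAC replicate 5 at 2 wk was 38.089 TPM, against 14.979 to 16.321 TPM, and without this library Vgf at 2 wk passed between CAC and Con. Inhba in Con replicate 5 at 8 wk was 1.703 TPM, against 3.27 to 3.603 TPM. None of the 6 libraries concerned is among the 10 rich in striatal or erythrocyte markers. No cause was tested.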

How the results depend on the processing

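The 8 genes kept the direction of every called difference in all alternatives run. The number of members past the threshold moved by more than 1.5 times as follows, and the cause was not tested. Between CAC and Con at 8 wk it was 2, and 1 with the replicate block and without the 10 marker-rich libraries (1 to 3 with 1 library left out); over the mean of the weeks it was 2, and 1 without the 10 libraries. At 2 wk it was 0, and 0 to 1 with 1 library left out, the call being Vgf without CAC replicate 5 or Con replicate 1. Between CAC and NCAC at 8 wk it was 1, and 0 with the replicate block and with only the compared groups fitted, 4 without the 10 libraries, and 0 to 3 with 1 library left out. At 6 wk it was 0, and 1 with median-of-ratios scaling, the replicate block, the GC and length trend removed, voom, and without the 10 libraries. Between 8 and 2 wk it was 5 in CAC and 3 with the trend removed (3 to 5 with 1 library left out); it was 1 in NCAC and 0 with only the compared groups (0 to 1); and it was 3 in Con, 1 without a filter, with median-of-ratios scaling and by voom, and 0 with the trend removed (0 to 3). Counts over all genes moved too: 577 between CAC and Con at 2 wk was 0 when these 2 groups were fitted alone, and 10 without the marker-rich libraries; 2256 at 8 wk was 988 with the block; 285 between CAC and NCAC at 8 wk was 51 with the block and 1109 without the 10 libraries; and 1509 between 8 and 2 wk in Con was 57 with the trend removed. Replicate numbers recur across groups, but same-numbered libraries did not deviate together (median r = -0.00424 over 308 pairs, -0.373 to 0.422, against -0.000315 over 1340 pairs of other numbers; 17 of 60 libraries correlated best with their own number), so they are not pairs. With the replicate block Bdnf was -0.44 between CAC and NCAC at 8 wk (adjusted p = 0.158 by limma) and -0.33 between 8 and 2 wk in CAC (0.0939), Inhba was -0.65 between CAC and Con at 8 wk (0.0651), and Ntrk2 was 0.26 between CAC and NCAC at 6 wk (0.0447). Depth limits Inhba most, at 17 to 107 reads per library.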
